A study of Mus musculus with 8 samples.

Results

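The genes described here encode the subunits, activators, assembly chaperones and the inhibitor of the proteasome. They were chosen by their symbols, which begin with Psma, Psmb, Psmc, Psmd, Psme, Psmf or Psmg and end in a number, and by a count of at least 10 in at least 4 of the 8 libraries. Of 48 genes with such a symbol 47 passed, out of 55414 genes in the table. All libraries hold RNA of red pulp macrophages, the splenic macrophages that clear aged red blood cells, sorted by flow cytometry from WT C57BL/6J mice. In 4 libraries (CLP) the spleen was taken 2 h after surgery that ties and pierces the cecum, a sepsis model, and in 4 (Sham) at the same time after sham surgery. The series concerns hemolysis in sepsis. Separate mice per library are not stated in the labels, so the p-values describe the spread between libraries, part of which may be technical.

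The proteasome degrades proteins tagged with ubiquitin. Its 20S core is a barrel of outer alpha rings and inner beta rings, and 3 kinds of beta subunit cut the protein chain: Psmb6 (caspase-like), Psmb7 (trypsin-like) and Psmb5 (chymotrypsin-like activity). In immune cells and after interferon gamma these are replaced in newly built cores by Psmb9, Psmb10 and Psmb8, which make the immunoproteasome and favour peptides that fit MHC class I. A 19S cap of ATPases, scaffold and lid subunits unfolds the substrate, and the 11S rings made of Psme1 and Psme2 or of Psme3 open the barrel without ubiquitin.

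Counts per library totalled 15392992 to 25665633, and values are given as CPM, counts per common library size, scaled by TMM, a method that sets the bulk of genes equal between libraries. At this scale 1 CPM rests on 15.1 to 27.6 reads. All genes of the proteasome together took 0.233% to 0.259% of the counts of a Sham library and 0.226% to 0.242% of a CLP library. The markers of the labelled cells were abundant: Adgre1, Vcam1 and Spic were at 1671 ± 126, 12611 ± 1181 and 1186 ± 118 CPM in Sham and 2271 ± 78.9, 16138 ± 1979.7 and 2213 ± 369.6 CPM in CLP (SD, n = 4). Of the 11 listed red pulp macrophage markers 7 were called higher after CLP with TMM scaling, with a median log2 fold change of 0.26 over the list (1 higher, 2 lower and a median of -0.06 with library totals), and Slc40a1, the iron exporter, was lower (-0.40). Summed markers of other cells were low: B cell markers lay at 49.1 to 61.5 CPM in Sham and 43.2 to 47.8 in CLP, T cell markers at 18.5 to 30.4 and 20.05 to 48.9, NK cell markers at 24.9 to 32.1 and 19.8 to 24.0, and monocyte markers at 14.2 to 15.6 and 13.3 to 21.2. Summed neutrophil markers lay at 2.53 to 7.98 CPM in Sham and 10.1 to 26.7 in CLP. Of 7 listed genes 3 could be tested and 2 (S100a8 and S100a9) were higher, while Retnlg had a value of 0.41 without passing. Ly6g and Camp were at or near 0 in every library. Mmp8 and Ltf, not tested, reached 1.12 and 2.15 CPM in CLP replicate 2. Of the B cell markers Cd79b was called lower (-0.58) while Cd79a had a value of 0.50 without passing, and of the NK cell markers, whose sum is mostly Klrk1, Ncr1 was called lower. The sums of dendritic cell markers (21.6 to 26.8 against 30.7 to 37.1 CPM) and platelet markers (6.62 to 7.78 against 17.5 to 22.3 CPM) also lay higher in CLP. Of the 4 dendritic cell markers tested 1, Zbtb46, was called (0.73), and Xcr1 had a value of -0.22. The erythroid markers summed to 259 to 1277 and 678 to 1181 CPM. Sham replicate 4 stood apart with the 1277 CPM, and without it 19 proteasome genes were called higher and 2 lower. The part of these cells in the results below was not tested.

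The proteasome genes as a whole moved little. With TMM scaling 19 of the 47 (40.4%) were higher after CLP and 3 (6.38%) lower in edgeR's quasi-likelihood test with an adjusted p under 0.05, where 43.3% of all 14004 genes tested were called, 19.8% as higher and 23.5% as lower. Among the 9304 tested genes in the members' range of abundance 18.4% were higher and 28% lower. In bulk RNA of sorted cells, fewer cells of a type and less RNA per cell cannot be told apart. The log2 fold changes (CLP minus Sham) ran from -0.71 to 0.52 with a median of 0.20, beside a median of -0.05 over all genes tested. The groups did not overlap, with CLP above Sham, for 19 of the 47 (40.4%, against 18.7% of all genes tested), and with CLP below Sham for 2 (22.8% of all genes tested, and 41.5% in either direction). Summed over all members the level was 2219 ± 104 CPM in Sham and 2611 ± 124 CPM in CLP (SD, n = 4). In the same range of abundance the median absolute log2 fold change was 0.32, against 0.23 for the proteasome genes, and the median SD within a group was 0.18 against 0.13 on the log2 scale.

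The direction of these small changes depends on the scaling. When libraries were scaled by their totals alone, the median over all genes tested moved from -0.05 to -0.37 and that of the proteasome genes from 0.20 to -0.12, and 0 members were then called higher and 11 lower in edgeR (1 and 14 at an unadjusted p under 0.05; 9.18% and 46% of all genes tested, 55.1% together). With DESeq2 size factors 23 were higher and 1 lower, against 21.8% and 21.6% of all genes tested (43.4% together). The median of the members stood above that of all genes with TMM and with library totals. For this reason each group below is also compared with the proteasome itself. Libraries were scaled to the summed counts of the 31 constitutive 20S and 19S genes and the whole table was fitted again, an alternative chosen after seeing the data, with 48.3% of all genes tested called, 9.94% as higher and 38.4% as lower. Counts of genes that are among those 31 have no independent meaning on that scale.

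Psmb6 and Psmb7 rose with TMM scaling and Psmb5 did not pass the test, and 0 of the 3 immunoproteasome subunits passed it. Psmb6 was at 43.7, 37.2, 42.1 and 42.8 CPM in Sham replicates 1 to 4 and 58.7, 50.9, 55.6 and 57.8 CPM in CLP replicates 1 to 4. The lowest CLP library stood above the highest Sham library, and the gene rose by 0.43 on the log2 scale (SE 0.08, adjusted p = 0.00147). Psmb7 was at 39.9, 37.9, 40.0 and 42.8 CPM in Sham and 54.9, 48.7, 47.6 and 57.4 CPM in CLP, again without overlap (0.38, SE 0.08, adjusted p = 0.00396). Psmb5, the least abundant of the 6, was at 13.2, 10.7, 11.2 and 11.4 CPM in Sham and 13.1, 12.1, 15.0 and 14.3 CPM in CLP. Its groups overlapped and the test was not passed (0.22, 95% interval -0.04 to 0.49, adjusted p = 0.163).

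Among their immunoproteasome counterparts, Psmb8 was at 96.5, 75.6, 87.6 and 82.1 CPM in Sham and 98.2, 85.1, 74.2 and 104 CPM in CLP. The CLP libraries were spread wider than the whole Sham range, from CLP replicate 3 at the bottom to CLP replicate 4 at the top (0.08, interval -0.17 to 0.33, adjusted p = 0.597). Psmb9 was at 67.3, 57.9, 62.3 and 55.9 CPM in Sham and 63.4, 53.4, 52.8 and 63.3 CPM in CLP (-0.06, interval -0.27 to 0.14, adjusted p = 0.602). Psmb10 was at 54.4, 48.4, 52.9 and 44.4 CPM in Sham and 51.3, 46.9, 42.9 and 57.1 CPM in CLP (-0.01, interval -0.24 to 0.21, adjusted p = 0.925). For all 3 genes the groups overlapped. The intervals of Psmb6 (0.25 to 0.61) and Psmb7 (0.19 to 0.56) overlapped that of Psmb8, and the interval of Psmb7 also overlapped that of Psmb10. Differences between these fold changes were not tested. The summed level of the 3 was 196 ± 17.5 CPM in Sham and 198 ± 25.0 CPM in CLP. That of the constitutive 3 was 93.3 ± 5.32 and 122 ± 8.12 CPM (SD, n = 4). With library totals Psmb9 (-0.38, adjusted p = 0.00224) and Psmb10 (-0.33, adjusted p = 0.00997) were called lower, Psmb8 was not (-0.24, adjusted p = 0.0684), and neither Psmb6 (0.11, adjusted p = 0.268) nor Psmb7 (0.06, adjusted p = 0.592) was called.

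**Figure D1:**
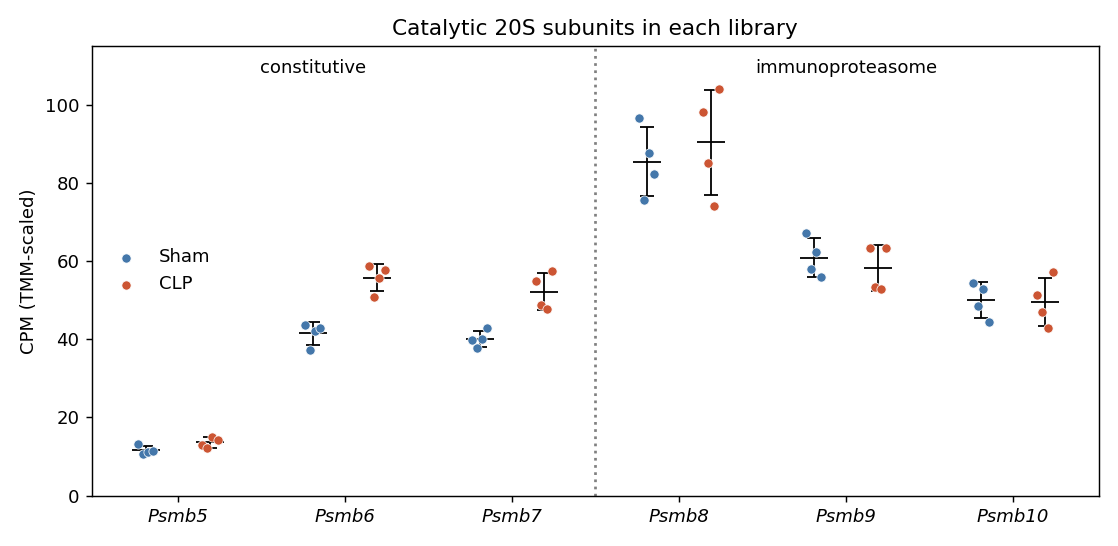
TMM-scaled CPM (linear axis from 0) of the constitutive and immunoproteasome cutting subunits, with 1 point per library, a bar at the mean and whiskers of 1 SD (n = 4). The CLP points of Psmb6 and Psmb7 lie above all Sham points, and those of Psmb5, Psmb8, Psmb9 and Psmb10 overlap them.

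A ratio of counts inside a library does not depend on how libraries are scaled. The log2 ratio of the summed counts of Psmb8, Psmb9 and Psmb10 to those of Psmb5, Psmb6 and Psmb7 was 1.17, 1.09, 1.12 and 0.91 in Sham replicates 1 to 4 and 0.75, 0.73, 0.52 and 0.79 in CLP replicates 1 to 4. Every CLP library lay below every Sham library, with means of 1.07 ± 0.11 and 0.70 ± 0.12 (SD, n = 4) and a difference of -0.37. In linear terms the macrophages had 2.10 immunoproteasome counts per constitutive count after sham surgery and 1.62 after CLP. With any 1 library left out the difference lay between -0.43 and -0.31. No p is given for this score, because its genes were chosen with earlier results of these data known.

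By pairs, the log2 ratio of Psmb9 to Psmb6, which share a place in the barrel, was 0.62, 0.64, 0.57 and 0.38 in Sham and 0.11, 0.07, -0.07 and 0.13 in CLP. That of Psmb10 to Psmb7 was 0.45, 0.35, 0.40 and 0.05 in Sham and -0.10, -0.05, -0.15 and -0.01 in CLP. Both pairs separated the groups, Psmb10 to Psmb7 narrowly, with Sham replicate 4 close to the CLP libraries. The ratio of Psmb8 to Psmb5 did not separate them: it was 2.86, 2.83, 2.96 and 2.85 in Sham and 2.91, 2.82, 2.31 and 2.86 in CLP, where CLP replicate 3 alone lay far below the Sham range. Scaled to the constitutive 20S and 19S genes, which hold none of the immunoproteasome subunits, Psmb9 (-0.32, adjusted p = 0.0114) and Psmb10 (-0.27, adjusted p = 0.0428) were called lower after CLP in edgeR and Psmb8 was not (-0.17, adjusted p = 0.189). On that scale the median over all genes tested was -0.30 and 38.4% of them were called lower. The fall of Psmb9 and Psmb10 is thus relative to the proteasome and near that of the median gene. Among the immunoproteasome genes themselves, the log2 ratio of Psmb8 and Psmb9 to Psmb10 was 1.59, 1.46, 1.503 and 1.64 in Sham and 1.66, 1.56, 1.57 and 1.55 in CLP, overlapping. Summed dendritic cell and neutrophil markers lay higher in CLP and B and NK cell markers lower, though not every gene of each list went with its sum, and their part in these ratios was not tested.

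**Figure D2:**
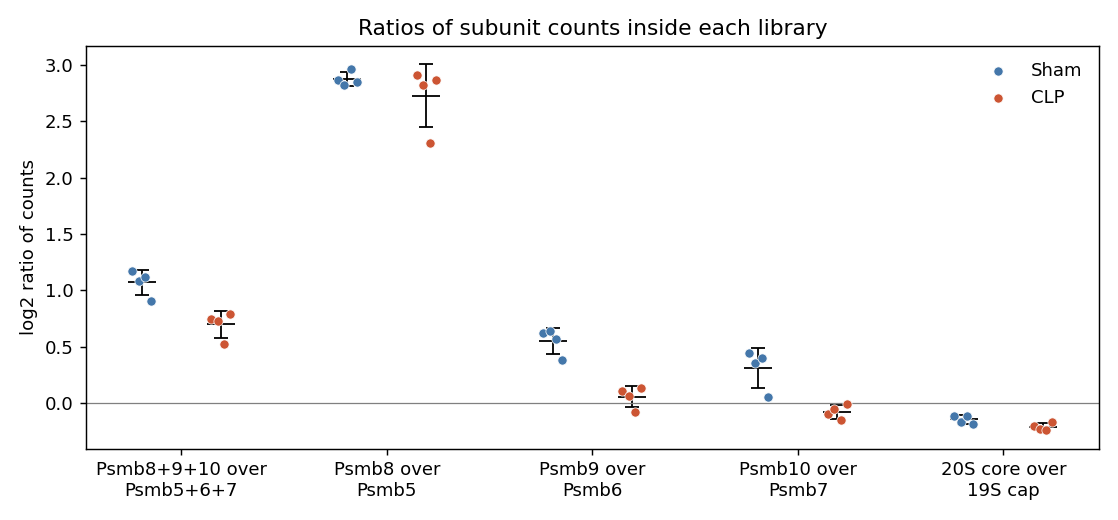
Log2 ratios of counts inside each library (vertical axis, no unit), with 1 point per library, a bar at the mean and whiskers of 1 SD (n = 4). The ratio of immunoproteasome to constitutive cutting subunits is lower in all 4 CLP libraries, and Psmb8 to Psmb5 and 20S core to 19S cap overlap between the groups.

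Levels were compared between genes per kilobase of the principal transcript in GENCODE M21. In Sham, Psmb8 (52.5 ± 5.42 CPM per kilobase, SD, n = 4) and Psmb6 (52.0 ± 3.68) stood level at the top, followed by Psmb9 (45.0 ± 3.73), Psmb10 (38.2 ± 3.47) and Psmb7 (34.6 ± 1.76), and Psmb5 was far below at 13.0 ± 1.24. Each gene down to Psmb7 lay within the summed SDs of its neighbour in this order. After CLP Psmb6 led at 69.9 ± 4.36, Psmb8 was at 55.5 ± 8.25, Psmb7 (45.0 ± 4.10) stood level with Psmb9 (43.1 ± 4.37), and Psmb10 (37.8 ± 4.66) and Psmb5 (15.1 ± 1.43) closed the order. There Psmb6 was above Psmb8, and Psmb5 below Psmb10, by more than the summed SDs, and the other neighbours were not. Summed per kilobase, the immunoproteasome genes stood above the constitutive ones by a mean log2 ratio of 0.44 ± 0.11 in Sham and 0.06 ± 0.12 in CLP (SD, n = 4). Psmb11, the cutting subunit of thymic epithelium, had 0 counts in all 8 libraries, which allows at most 0.109 to 0.199 CPM in a library (3 counts), and was the 1 gene outside the count rule. The lowest genes inside it were Psmg3, with 28 to 94 counts per library, and Psma8, a germ cell form of an alpha subunit, with 32 to 105.

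The windows of 250 bases before the start site, from RefSeq on build GRCm38.p6, are shown for 4 of the cutting subunits because the ratio of the immunoproteasome to the constitutive genes was lower after CLP. They were searched on both strands for the core of the antioxidant response element (TGACNNNGC), to which the proteasome gene activator Nfe2l1 and its relative Nfe2l2 bind with small Maf proteins, the gamma-activated sequence (TTCNNNGAA), the interferon-stimulated response element, an NF-kB site and the CCAAT box (CCAAT). Capitals mark the antioxidant element in Psmb5 and Psmb6 and the gamma-activated sequence in Psmb8. The CCAAT box is not marked.
Psmb5 (chr14:54617996-54618245, minus strand): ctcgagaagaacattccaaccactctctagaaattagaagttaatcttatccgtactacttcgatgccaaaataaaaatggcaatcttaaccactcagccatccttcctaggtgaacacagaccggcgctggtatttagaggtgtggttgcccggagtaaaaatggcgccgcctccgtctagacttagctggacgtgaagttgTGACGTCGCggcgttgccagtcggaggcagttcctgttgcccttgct
Psmb6 (chr11:70525107-70525356, plus strand): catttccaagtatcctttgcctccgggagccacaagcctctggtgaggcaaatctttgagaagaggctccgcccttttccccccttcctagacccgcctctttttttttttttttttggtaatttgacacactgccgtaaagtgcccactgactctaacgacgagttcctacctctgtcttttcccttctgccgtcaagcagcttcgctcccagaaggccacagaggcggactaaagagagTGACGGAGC
Psmb8 (chr17:34197945-34198194, plus strand): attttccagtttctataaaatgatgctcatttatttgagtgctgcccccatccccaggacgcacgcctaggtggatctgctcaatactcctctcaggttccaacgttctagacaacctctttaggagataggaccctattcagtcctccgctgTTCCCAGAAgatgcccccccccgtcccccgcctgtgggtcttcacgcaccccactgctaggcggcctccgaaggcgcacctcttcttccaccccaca
Psmb9 (chr17:34187331-34187580, minus strand): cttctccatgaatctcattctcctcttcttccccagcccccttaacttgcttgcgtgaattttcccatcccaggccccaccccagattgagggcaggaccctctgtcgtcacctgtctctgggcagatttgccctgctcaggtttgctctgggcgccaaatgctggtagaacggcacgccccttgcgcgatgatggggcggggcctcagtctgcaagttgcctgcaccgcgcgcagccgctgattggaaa

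The antioxidant element began at position -47 from the start site of Psmb5 and at -9 of Psmb6, and the gamma-activated sequence at -97 of Psmb8. The window of Psmb9 held none of the first 4 motifs, and a CCAAT box on its other strand began at -8. The window of Psmb10, which is not printed, held 0 of the 5 motifs. No window was available for Psmb7, so it was not searched. Over the 39 members with a window in the table, the antioxidant element was in 5 (12.8%, against 10.2% of 32841 windows of all genes), the gamma-activated sequence in 2 (5.13% against 7.02%), the interferon element in 3 (7.69% against 2.98%), the NF-kB site in 0 (0.356% of all windows) and the CCAAT box in 13 (33.3% against 33.9%). The share of members is by gene over 42 windows and that of all genes is by window, so the percentages are not fully alike. A match of letters is a description and does not show binding. Psmb9 and the peptide transporter gene Tap1 start back to back on opposite strands, and 225 of the 250 bases of their windows are the same. Tap1 rose with TMM scaling (0.53, adjusted p = 0.00606; the call was lost with library totals) whereas Psmb9 did not pass (-0.06). The annotated exons of these genes share 212 bases, and since the strand setting of the counting is not given, reads there cannot be assigned with certainty. The same holds for 405 bases that Psmb7 shares with Nek6 and 498 that Psmb8 shares with the gene model Gm20496. Other members share exon bases as well, among them Psmd13 with Sirt3 (342) and Psmd1 with Htr2b (252). On the same strand, Psmd1 shares 301 bases with Gm21972 and Psmg3 shares 280 with Gm26938. No strand setting would separate the reads there.

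In the rest of the 20S core, which holds the proteolytic chamber, 2 of 7 ring-forming alpha genes and 2 of 4 structural beta genes were higher and 0 lower with TMM scaling, and 0 were called higher with library totals. Psma2, the alpha gene with the largest change, was also the highest in CPM without regard to length. Per kilobase Psma7, Psma6, Psma1 and Psma4 were higher. Psma2 was at 63.9, 53.4, 59.1 and 61.5 CPM in Sham and 73.0, 73.7, 75.7 and 77.2 CPM in CLP (0.33, adjusted p = 0.00376). The groups did not overlap. Psma4 was the other called alpha gene (0.26, adjusted p = 0.0318; lost when CLP replicate 1 or 4, at most 0.0963, or Sham replicate 2 or 4 was left out), and the log2 fold changes of the remaining 5 lay between 0.14 and 0.21. Among the beta genes Psmb2 was at 41.0, 35.7, 38.0 and 39.2 CPM in Sham and 48.7, 46.0, 45.8 and 55.5 CPM in CLP, without overlap (0.35, adjusted p = 0.00708). Psmb4 was called (0.29, adjusted p = 0.0225, lost without CLP replicate 1 or 4, up to 0.0748). Psmb1, the highest of the 4 in CPM but not per kilobase, was at 61.2, 61.0, 61.3 and 61.1 CPM in Sham and 62.6, 67.3, 65.4 and 63.8 CPM in CLP. It missed the threshold (0.08, adjusted p = 0.311) although its groups did not overlap. Psma8 was at 3.80, 2.14, 2.68 and 3.33 CPM in Sham and 2.50, 3.68, 2.08 and 2.12 CPM in CLP, with overlap (-0.20, adjusted p = 0.572).

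In the 19S cap 8 of 17 genes (47.1%) were higher and 0 lower with TMM scaling, and all 17 fold changes were positive, while with library totals 0 were higher and 3 lower. Psmd11, a lid subunit, had the largest rise of the whole family: it was at 77.7, 72.5, 77.6 and 74.6 CPM in Sham and 106, 92.7, 118 and 118 CPM in CLP (0.52, SE 0.09, adjusted p = 0.000563). All CLP libraries stood above all Sham libraries, with CLP replicate 2 the lowest of them. Psmd11 was the 1 member called higher when libraries were scaled to the constitutive core and cap genes (0.27, adjusted p = 0.0155). Since it is among them, that call has no independent meaning. Psmd1, a scaffold of the cap, was at 73.8, 69.6, 68.3 and 70.1 CPM in Sham and 95.3, 89.9, 88.3 and 100.3 CPM in CLP, without overlap (0.41, SE 0.07, adjusted p = 0.000662). Psmd2, the other scaffold and the highest cap gene in CPM and per kilobase, was at 137, 121, 132 and 124 CPM in Sham and 153, 148, 151 and 158 CPM in CLP (0.25, adjusted p = 0.0108). Its call was lost with no filter on low counts (adjusted p = 0.0521), as were those of Psmd14, Psmc4, Psmc6, Psma4, Psmg3 and Psmd10.

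Other lid genes that rose were Psmd12 (0.36, adjusted p = 0.00658), Psmd3 (0.33, adjusted p = 0.00650) and Psmd14, the enzyme that cuts ubiquitin chains off the substrate (0.23, adjusted p = 0.0497; lost without any 1 of the CLP libraries or Sham replicate 1 or 2, where it reached 0.114). Psmd6, Psmd7, Psmd8 and Psmd13 of the same lid had values of 0.02 to 0.15 and did not pass, and neither did the ubiquitin receptor Psmd4 (0.13). Of the 6 ATPases that form the motor ring, Psmc4 and Psmc6 were called. Psmc4 was at 40.3, 31.4, 36.2 and 37.7 CPM in Sham and 44.5, 40.1, 47.0 and 44.3 CPM in CLP, with an overlap at CLP replicate 2 (0.27, adjusted p = 0.0341; lost when CLP replicate 1, 3 or 4, at most 0.0733, or Sham replicate 2 was left out). Psmc6 rose by 0.27, without overlap (adjusted p = 0.0304; lost without CLP replicate 4, at 0.0973, or Sham replicate 3). Psmc1, the highest ATPase gene in CPM and per kilobase, was at 69.4, 55.9, 59.9 and 60.0 CPM in Sham and 68.1, 70.9, 62.9 and 69.0 CPM in CLP, overlapping (0.14, adjusted p = 0.184). The ATPase genes lay close together, between 0.14 and 0.27.

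Core and cap genes had close medians. The median log2 fold change was 0.20 over 18 core genes and 0.22 over 17 cap genes, and 0.21 over the 14 core genes left without the immunoproteasome subunits and Psma8. The log2 ratio of summed core to summed cap counts was -0.11, -0.17, -0.11 and -0.19 in Sham and -0.20, -0.23, -0.24 and -0.16 in CLP, overlapping, with means of -0.14 ± 0.04 and -0.21 ± 0.03 (SD, n = 4). Without the immunoproteasome subunits and Psma8 the means were -0.56 ± 0.02 and -0.57 ± 0.03, a difference of -0.01.

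The 4 activator genes were the group in which each member was called higher with TMM scaling and none overlapped, while with library totals 0 of 4 were called and their values ran from -0.03 to 0.12. Psme3, which forms the nuclear 11S ring, was at 98.4, 102, 97.3 and 117 CPM in Sham and 135, 126, 176 and 126 CPM in CLP (0.44, SE 0.11, adjusted p = 0.00886). CLP replicate 3 was far above the other CLP libraries. Psme4, the PA200 activator, was at 138, 130.2, 139 and 135 CPM in Sham and 171, 178, 172 and 184 CPM in CLP (0.38, SE 0.06, adjusted p = 0.000549). Psme1 and Psme2, whose products form the interferon-inducible ring, passed the test with TMM scaling where the interferon-inducible cutting subunits did not; that difference between genes was not tested. Psme1 was at 146, 124, 130.3 and 126 CPM in Sham and 160.1, 157, 151 and 176 CPM in CLP (0.29, adjusted p = 0.0110). Psme2 was at 71.1, 60.1, 69.8 and 65.8 CPM in Sham and 78.3, 74.8, 82.8 and 99.6 CPM in CLP (0.33, adjusted p = 0.0178, 0.0523 without CLP replicate 4). Psme2b, a near-identical copy outside the symbol rule, had 51 to 223 counts, and reads of the 2 copies may have been exchanged in counting. The log2 ratio of Psme1 and Psme2 to Psme3 was 1.14, 0.86, 1.04 and 0.71 in Sham and 0.82, 0.88, 0.41 and 1.13 in CLP, with wide overlap. Against the constitutive core and cap genes none of the 4 activators was called (0.19, adjusted p = 0.208 for Psme3).

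All 3 members called lower with TMM scaling were assembly chaperones or the inhibitor. Of 7 chaperone genes 2 were lower and 1 higher with TMM scaling, with a median of -0.30, and 4 were lower and 0 higher with library totals. Psmd5, which holds ATPases of the cap base during assembly, was at 23.6, 20.1, 20.6 and 24.5 CPM in Sham and 12.3, 13.2, 16.8 and 11.8 CPM in CLP (-0.71, SE 0.13, adjusted p = 0.00120). Every CLP library lay below every Sham library, and Psmd5 was called lower in every alternative run, each library left out in turn included. Psmg3, a chaperone of the alpha ring, fell by 0.65 on the log2 scale (adjusted p = 0.0425; lost when replicate 1, 2 or 3 of either group was left out, with at most 0.141, and with DESeq2 size factors, at 0.0557), from 3.38 ± 0.587 to 2.14 ± 0.518 CPM, where counting error is large. Of the other Psmg genes, Psmg1 (-0.30, adjusted p = 0.240) and Psmg2 (-0.50, adjusted p = 0.0593) had lower values without passing. Psmg2 was called lower in limma-voom and when CLP replicate 1 was left out. Psmg4 was at -0.06 (adjusted p = 0.770). Psmd10, another chaperone of the cap base and known as the oncoprotein gankyrin, was the 1 that rose. It was at 18.1, 17.5, 20.9 and 17.8 CPM in Sham and 25.0, 19.9, 25.3 and 24.4 CPM in CLP, overlapping at CLP replicate 2 (0.35, adjusted p = 0.0222; 0.0576 when CLP replicate 1 and 0.0570 when CLP replicate 4 was left out). The third base chaperone, Psmd9, did not pass (0.08, adjusted p = 0.649).

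Psmf1, which encodes the 20S inhibitor PI31, was at 25.98, 28.7, 26.9 and 34.0 CPM in Sham and 25.6, 24.5, 23.0 and 21.1 CPM in CLP, all CLP libraries below all Sham libraries by a narrow margin (-0.30, adjusted p = 0.0455). That call did not hold with DESeq2, limma-voom or DESeq2 size factors, nor in 7 of the 8 fits that left out a library (up to 0.193). Scaled to the constitutive core and cap genes, 4 of the 7 chaperone genes were called lower, namely Psmd5 (-0.96, adjusted p = 0.000129), Psmg3 (-0.91, adjusted p = 0.00759), Psmg2 (-0.74, adjusted p = 0.0109) and Psmg1 (-0.54, adjusted p = 0.0319), and so was Psmf1 (-0.54, adjusted p = 0.00351). There the median over all genes tested was -0.30, and 38.4% of them were called lower.

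**Figure D3:**
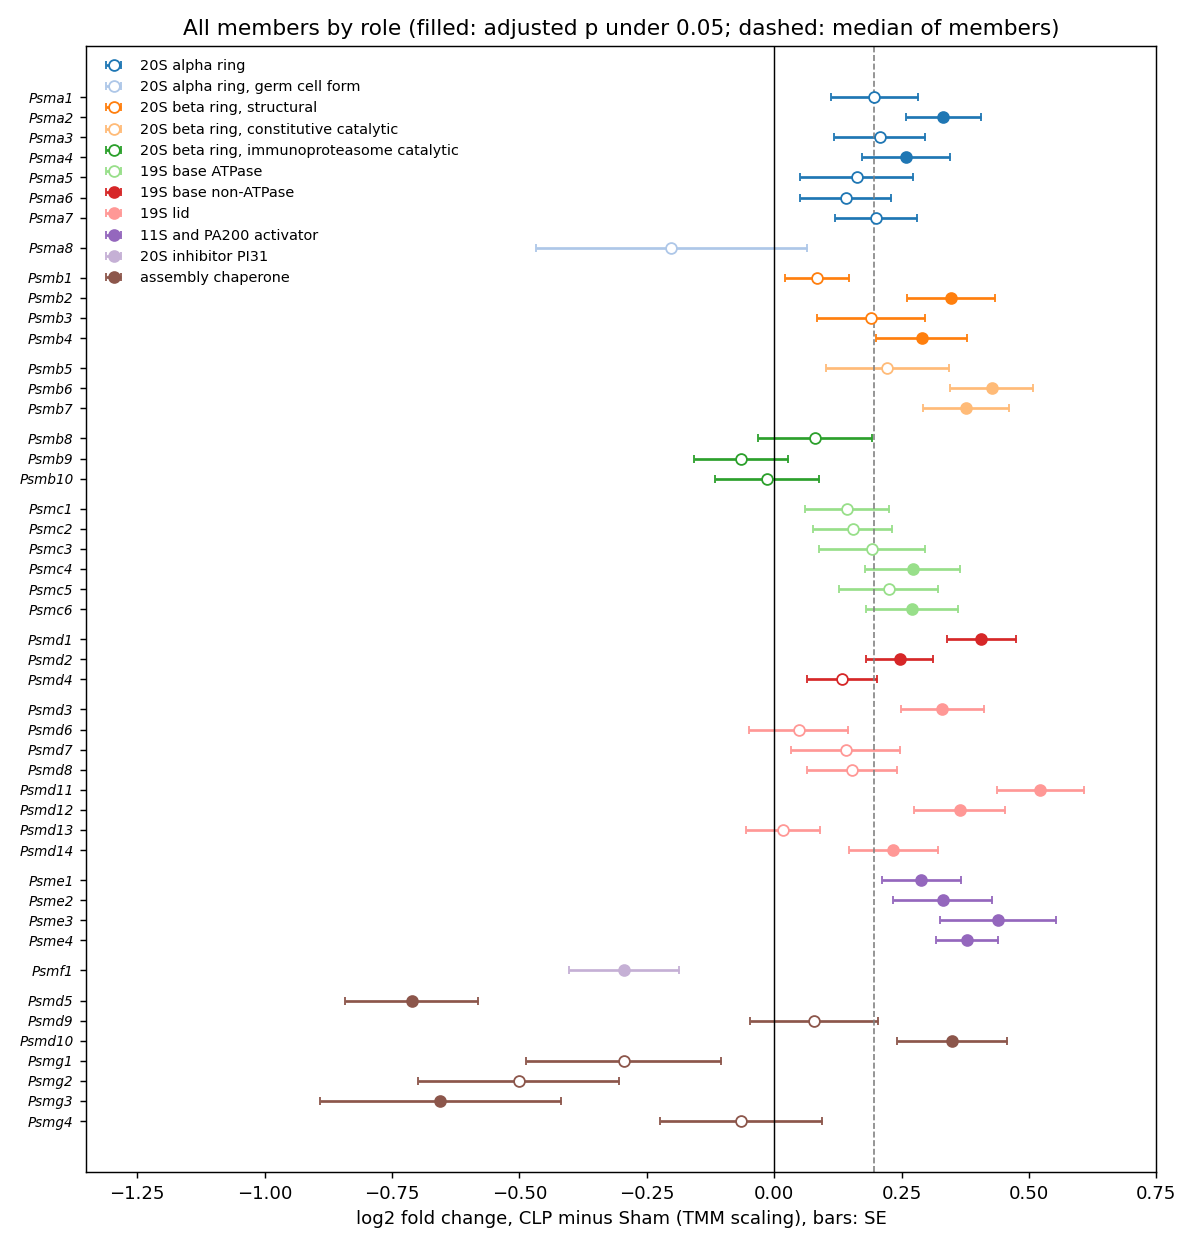
Log2 fold change (CLP minus Sham, TMM scaling, horizontal axis) of each of the 47 members with its SE, grouped and coloured by role, filled where the adjusted p was under 0.05. Psmd11 lies farthest right at 0.52 and Psmd5 farthest left at -0.71, and the immunoproteasome subunits lie near 0, left of the dashed median of 0.20.

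Genes that work with the proteasome are given by lists that were written with earlier results of these data known. Of 10 other subunits, chaperones and bound factors 6 were higher and 1 lower with TMM scaling, and 1 and 3 with library totals. Zfand5, an activator of the 26S proteasome, was the highest of the list in CPM and rose the most, from 254 ± 28.0 to 562 ± 51.4 CPM (SD, n = 4, log2 fold change 1.14, adjusted p = 8.13e-06). Txnl1, a thioredoxin bound to the lid, rose by 0.38 (adjusted p = 0.0146), Pomp, the maturation factor of the core, by 0.26 (adjusted p = 0.0157, 0.0540 without CLP replicate 4) and the ubiquitin receptor Adrm1 by 0.28 (adjusted p = 0.0194, 0.0590 without CLP replicate 4), although the fold changes of Pomp and Adrm1 turned negative with library totals. Akirin2, which brings proteasomes into the nucleus, fell from 33.8 ± 3.22 to 25.8 ± 1.18 CPM (-0.39, adjusted p = 0.00463).

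In the list around Nfe2l1, the factor that raises proteasome genes when proteasomes are short, 4 of 7 were higher and 1 lower, under TMM scaling and with library totals alike. Nfe2l1 itself was at 272, 246, 251 and 262 CPM in Sham and 272, 286, 301 and 285 CPM in CLP. The groups barely failed to overlap, with 271.98 CPM in Sham replicate 1 and 272.17 CPM in CLP replicate 1. The gene missed the threshold in edgeR with TMM (0.15, adjusted p = 0.0871) and passed in DESeq2. The rises belonged to its relative Nfe2l2, at 128, 132, 125 and 107 CPM in Sham and 238, 264, 254 and 272 CPM in CLP (1.06, adjusted p = 4.13e-06), and to the small Maf partners. Maff rose from 32.3 ± 10.2 to 228 ± 20.8 CPM (2.82) and Mafk from 50.9 ± 4.62 to 135 ± 11.3 CPM (1.40), and Mafg rose by 0.61. Ngly1, which removes the sugars from Nfe2l1, fell from 54.7 ± 2.88 to 42.7 ± 4.16 CPM (-0.35, adjusted p = 0.00600). In the ubiquitin list 9 of 15 were higher and 1 lower, and 1 and 4 with library totals. Midn, which takes nuclear proteins to the proteasome without ubiquitin and was the highest of the list in CPM, rose from 226 ± 35.3 to 445 ± 67.2 CPM (0.98, adjusted p = 0.000223), the shuttle Rad23b rose by 0.46 (adjusted p = 0.000268), and the shuttle Ubqln4 fell by 0.42 on the log2 scale (adjusted p = 0.00314).

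The interferon gamma route to the immunoproteasome had 4 of 9 genes higher and 2 lower with TMM scaling and 3 and 3 with library totals. The kinase gene Jak2 rose from 112 ± 10.2 to 312 ± 43.0 CPM (1.48, adjusted p = 2.73e-06) and the transcription factor Irf1, which drives immunoproteasome genes, was at 272, 303, 289 and 222 CPM in Sham and 692, 616, 628 and 897 CPM in CLP (1.38, adjusted p = 2.23e-05). The receptor chain Ifngr2 rose by 0.60 (adjusted p = 0.00109) and Jak1, the highest in mean CPM, by 0.47 (adjusted p = 0.000429). Irf8 (-0.35, adjusted p = 0.0288) and Irf2 (-0.21, adjusted p = 0.0474) fell, but with DESeq2 size factors the list held 4 higher and 0 lower genes. Nlrc5, the activator of MHC class I genes, did not pass (0.21, adjusted p = 0.300). Of 11 genes of peptide trimming, transport and MHC class I, 9 were higher and 0 lower with TMM scaling, and 3 and 1 with library totals. H2-K1 rose from 938 ± 94.6 to 1565 ± 113 CPM (0.74, adjusted p = 9.07e-05), B2m from 1465 ± 119.5 to 2158 ± 129 CPM (0.56) and H2-D1, the highest in CPM, from 1569 ± 149 to 2251 ± 163 CPM (0.52). Tap1 was at 129.6, 122, 133 and 106 CPM in Sham and 166, 140.0, 185 and 218 CPM in CLP, with every CLP library above every Sham library. The calls of Tap1, Jak1, Rad23b and Txnl1 were lost with library totals.

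**Figure D4:**
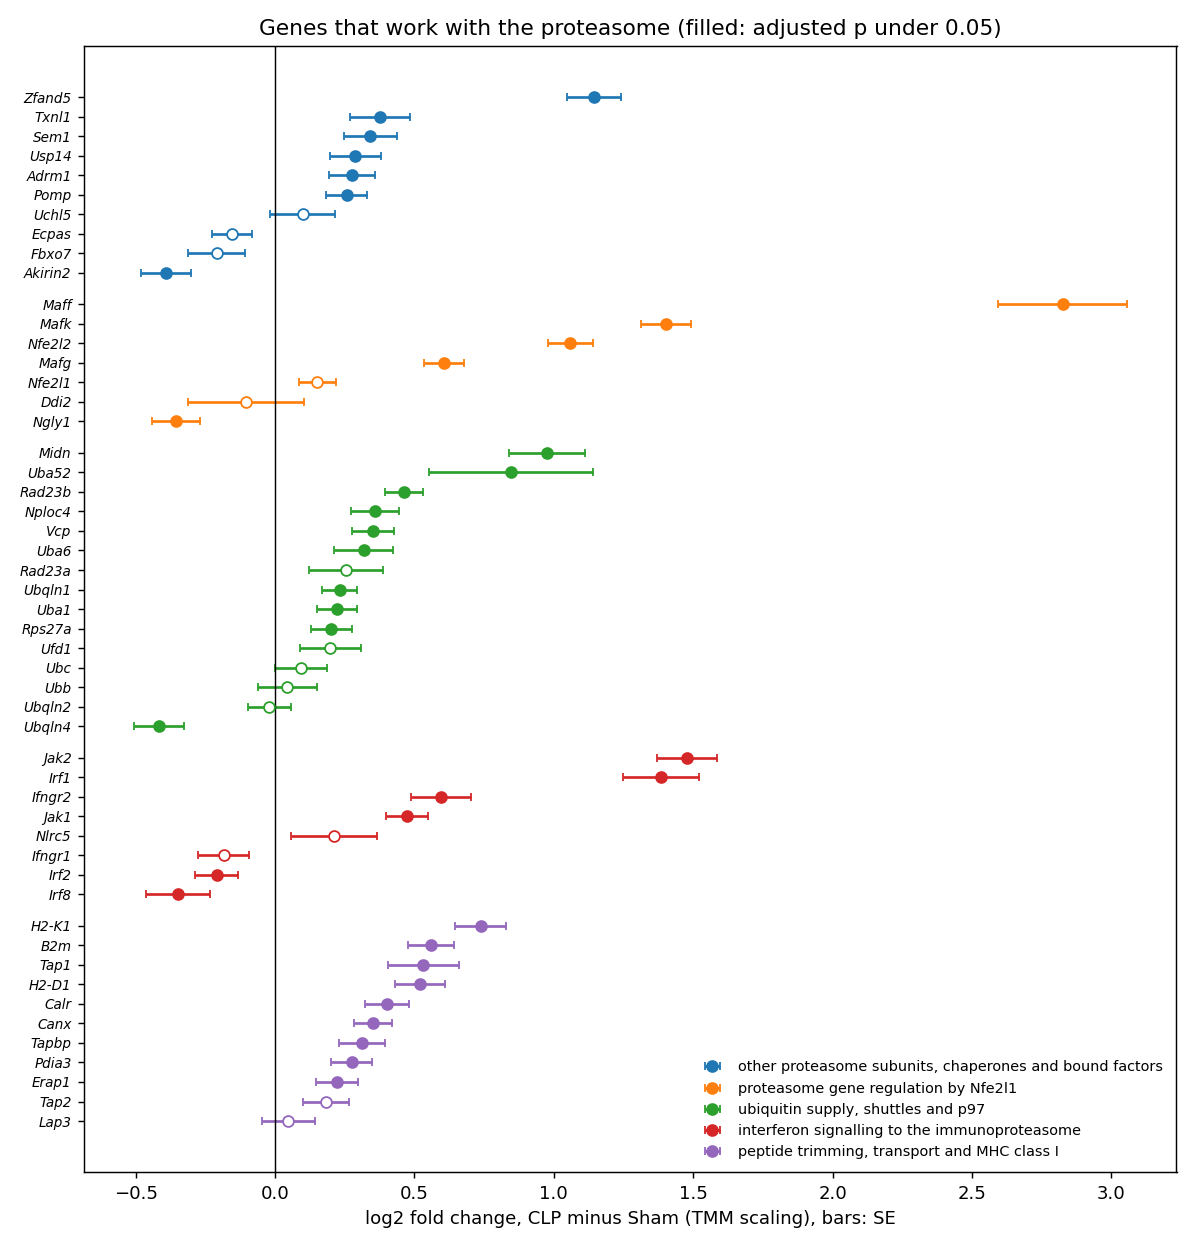
Log2 fold change (CLP minus Sham, TMM scaling, horizontal axis) with its SE of genes that work with the proteasome, coloured by list and filled where the adjusted p was under 0.05. Maff lies farthest right at 2.82, and the MHC class I genes lie to the right of 0.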

How the data were processed

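The authors deposited raw counts by Ensembl gene ID in a single table of 8 columns, 1 for each library. FastQC, STAR 2.7.10b, featureCounts, DESeq2 and the mouse build mm39 are named without roles in the submitters' processing notes. For the annotation release, the strand setting and reads with several matches, the choice is not given in the sources used here; hence genes with overlapping exons or near-identical copies cannot be told apart with certainty. Per the labels' protocols, RNA was isolated with a column kit and libraries were made with a stranded TruSeq kit and sequenced on an Element AVITI. Symbols were given to 52081 of 55414 gene IDs from GENCODE M21, and promoter windows came from RefSeq, both on the older build GRCm38, so no gene coordinates are printed beyond those windows.

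The members, lists and tests were chosen with earlier results of these data known. The test was edgeR's robust quasi-likelihood F-test (edgeR 4.0.16, R 4.3.3) on both groups without covariates, over the 14004 genes that filterByExpr passed, after TMM scaling (factors of 0.873 to 0.915 for CLP and 1.08 to 1.15 for Sham), with Benjamini-Hochberg adjustment over all genes tested and a threshold of 0.05. SE was taken as |log2 fold change| over the root of F, and intervals are at 95%. Log2 CPM used a pseudocount of 0.5. Libraries of 1 group differed from each other by more than counting error (chi-square at least 9.25 per degree of freedom), so each was kept as its own replicate. Named genes were every called member, in each role group the member with the largest change and the one highest in CPM, the cutting subunits and activators, and from each companion list the 3 largest called changes at 5 CPM or more, the gene highest in CPM and Nfe2l1, Pomp, Adrm1, Irf1, Nlrc5 and Tap1. The values of 1 gene of the rule are not reported here. Ratios of counts and list medians carry no test.

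Alternatives were DESeq2 1.42.0, limma-voom (limma 3.58.1), DESeq2 size factors, library totals, other filters on low counts, a replicate block, 1 surrogate variable (sva 3.50.0) and each library left out. Scaling to the 31 constitutive core and cap genes was chosen after seeing the data. With simulated counts for CLP against Sham (13846 genes, 200 changed), edgeR found 28% of the 1.5-fold and 96% of the 2-fold changes and made 4 false calls. The simulation changed 200 genes, while 43.3% of all genes tested were called in these data. An adjusted p under 0.05 was therefore harder to reach there, and the 28% cannot be carried over to these data. Most changes described here are smaller than 1.5-fold. Python 3.11.15 with matplotlib 3.10.9 drew the figures.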

Additional observations from a re-analysis of the deposited data

Results flagged for a closer look

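In groups of 4 libraries a value was singled out when its gap to the nearest other library exceeded Dixon's 95% critical value as a share of the group's range, and chance does this in about 1 in 20 groups. Of 142 such groups 5 held a value of this kind. Psmg3 was at 2.91 CPM in CLP replicate 4 against 1.79 to 1.97 CPM in the other CLP libraries. Psma1 was at 52.8 CPM in Sham replicate 1 against 49.6 to 50.1 CPM. Txnl1 was at 60.8 CPM in CLP replicate 2 against 70.0 to 71.5 CPM. Rad23b was at 199 CPM in CLP replicate 4 against 182 to 184 CPM, and at 147 CPM in Sham replicate 1 against 131 to 133 CPM.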

How the results depend on the processing

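Scaling decided the direction of most members. With library totals 0 members were called higher and 11 lower, their median was -0.12, and 12 of the 47 fold changes were positive, against 38 with TMM. The values of Psmd14 (-0.087), Psmb4 (-0.031), Psmc4 (-0.046), Psma4 (-0.059), Psmc6 (-0.0501), Psme1 (-0.029), Psmd2 (-0.071), Pomp (-0.062) and Adrm1 (-0.0396) turned negative without a call, and Psmd4 (-0.18), Psmd13 (-0.30), Psmd6 (-0.27) and Psmb1 (-0.23) turned negative and were called lower. Scaled to the constitutive core and cap genes 1 member was higher and 8 were lower (9.94% and 38.4% of all genes tested). The median was -0.057, beside -0.30 over all genes tested, and 17 of the 47 fold changes were positive. Among those that turned negative were Psmd14 (-0.0155), Psmd2 (-0.0031) and Psmd13 (-0.23), which was called lower. These named genes are among those that set the scale. DESeq2 size factors left 23 members higher and 1 lower and the replicate block 19 and 1, where Psmf1 and Psmg3 lost their calls as with the size factors. Leaving out each library gave 12 to 23 members higher (12 without CLP replicate 4) and 1 to 3 lower, and 12 of the 19 higher and 1 of the 3 lower members were called in all 8 of these fits. The number of all genes called stayed within 1.5 times of 6064 in each alternative. The difference in the immunoproteasome ratio was -0.34 from mean log2 values and -0.43 to -0.31 with each library left out, and that of core to cap -0.05 and -0.08 to -0.05. Replicate numbers gave no clear pairing of the libraries. Correlations of same-numbered deviations were -0.25 to 0.31, and 1 of 4 was best matched to its own number. With 4 libraries per group this cannot show that there was no pairing. Most changes described here were under 1.5-fold. Some calls of that size, such as Psmd2 (0.25) and Psme1 (0.29), held with any library left out, while others, such as Psmd14 (0.23), did not.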
